A study of Schizosaccharomyces pombe with 3 samples.

Results

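The genes of glycerol and trehalose metabolism described here are gpd1, gpd2, gut2, gld1, dak1, dak2, tps1, tpp1 and ntp1 of the fission yeast Schizosaccharomyces pombe. The rule that picks their features uses names and no measured value: every array feature carrying one of these symbols, or the gene's systematic name, was taken, with the prefix IGR- read as the region upstream of the gene and no prefix read as its coding region. The 9 genes, of 5351 gene names on the array, had 21 features of 10213. Binding of the corepressor subunit Ssn6 was measured by chromatin immunoprecipitation on 2-colour microarrays, in 1 group of 3 arrays from separate experiments. The group was a strain with Ssn6 fused to green fluorescent protein, growing in rich YES medium at mid log phase, harvested without any stated stress or other treatment. Crosslinked chromatin was precipitated with a polyclonal antibody against the tag, and both precipitate and input DNA were amplified before labelling. The sources used here give no further genotype, and no untagged strain or mock precipitate was analysed here, so each value is precipitate against input DNA of the same tagged cells.

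Glycerol is the main compatible solute that fission yeast accumulates under osmotic stress. Glycerol 3-phosphate dehydrogenase (Gpd1, Gpd2) reduces dihydroxyacetone phosphate from glycolysis to glycerol 3-phosphate, which a phosphatase turns into glycerol, and gpd1 is a known stress target of the Sty1 kinase and the Atf1 transcription factor. Glycerol is used again through the dehydrogenase Gld1 and the dihydroxyacetone kinases Dak1 and Dak2, while Gut2 is the mitochondrial glycerol 3-phosphate dehydrogenase. Trehalose, a disaccharide that protects stressed and resting cells, is made by the synthase Tps1 and the phosphatase Tpp1 and is broken down by the neutral trehalase Ntp1. Ssn6 acts with Tup11 and Tup12, the fission yeast relatives of Tup1, as a corepressor that DNA-binding proteins bring to promoters.

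The features upstream of gpd1 and dak2 had the high ratios among these genes. The upstream ratio of gut2 was near 0, and its promoter shares a motif with that of the gpd1 locus SPBC215.05. Promoter sequence of these 3 genes is shown for that reason, from RefSeq assembly ASM294v3, 5′ to 3′ on the gene's strand. The array's own build and fragment ends were not given in the sources used here, so the windows are not the spotted fragments. Windows of 250 bases before the annotated gene start were searched on both strands for TGACGT (Atf1 type), CCCCT (stress response element type) and CCCCGC (Mig1 type), and matches stand in capitals. No 2 of these motifs overlapped in the members' windows. The symbol gpd1 belongs to the locus SPBC215.05 and was also an older name of tdh1 (SPBC32F12.11), a glyceraldehyde 3-phosphate dehydrogenase, so both promoters are given.
gpd1, chrII:4035316-4035565, plus strand: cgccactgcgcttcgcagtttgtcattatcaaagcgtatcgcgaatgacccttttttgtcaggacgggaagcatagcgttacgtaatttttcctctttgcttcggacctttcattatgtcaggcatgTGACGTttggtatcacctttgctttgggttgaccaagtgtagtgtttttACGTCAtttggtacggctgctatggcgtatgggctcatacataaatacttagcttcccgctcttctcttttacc
tdh1, chrII:2807345-2807594, plus strand: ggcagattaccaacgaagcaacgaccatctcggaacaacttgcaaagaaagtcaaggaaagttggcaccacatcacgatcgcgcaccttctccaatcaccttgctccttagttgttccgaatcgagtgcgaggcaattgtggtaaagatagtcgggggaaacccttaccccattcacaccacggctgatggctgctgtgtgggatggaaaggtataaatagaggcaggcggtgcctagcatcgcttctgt
gut2, chrIII:1843257-1843506, minus strand: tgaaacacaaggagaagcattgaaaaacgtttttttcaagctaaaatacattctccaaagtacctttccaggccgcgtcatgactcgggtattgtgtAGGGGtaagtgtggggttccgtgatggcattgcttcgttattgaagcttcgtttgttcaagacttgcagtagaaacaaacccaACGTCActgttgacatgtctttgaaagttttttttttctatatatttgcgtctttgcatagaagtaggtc
dak2, a stretch of 30 bases, chrI:66729-66758, minus strand: aacgcaccgcgcGCGGGGtagtagtaatgt
The gpd1 promoter held 2 matches to TGACGT, beginning 123 and 74 bases before the gene start, and the tdh1 promoter held none of the 3 motifs. The gut2 promoter held TGACGT at 70 and CCCCT at 153 bases, and the ntp1 promoter held TGACGT at 69 bases. The only match in the dak2 window was CCCCGC at 67 bases, and that window lies in the annotated transcript of the gene on the other strand, so only a short stretch is shown. The windows of gpd2, gld1, dak1, tps1 and tpp1 held none of these letters. Of 5112 promoter windows of the same length, 5.52% held TGACGT, 8.26% held CCCCT and 0.998% held CCCCGC. These matches describe letters and not bound sites.

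The ratio of each feature was the log2 of likely precipitate over likely input, centred on the median of its array, so 0 is the level of the typical feature. Which channel holds the precipitate is open to doubt. According to the labels the precipitate carried Cy5 and the input Cy3 as a general practice with no dye swap, whereas the scanner columns are called A and B with no dye named. In channel B over A, replicate 2 correlated with replicates 1 and 3 at r = -0.48 and r = -0.54 over 3960 features, while replicates 1 and 3 correlated at r = 0.72. Channel A was therefore taken over channel B on replicate 2, which turns both negative correlations to 0.48 and 0.54, and values computed as B over A on every array, called the unturned reading below, stand beside the main results. The sign of all ratios could also be turned as a whole. Replicates 1, 2 and 3 gave a ratio at 49.0%, 95.5% and 37.7% of 20434 feature spots, since a spot without positive intensity in either channel was left out. The 95th percentile of the precipitate channel at 1624 negative-control spots was 1959 on replicate 1, 222.7 on replicate 2 and 4452 on replicate 3 (intensity units). Of the features on all 3 arrays, 37.0%, 100% and 16.0% lay above the limit of each array in turn. The number of arrays and this loss of spots limit the precision of every value below.

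Of the 21 features, 3 have names ending in Missing (the upstream features of gld1 and tps1 and a further coding feature under the name gpd1) and gave no ratio on any array. The other 18 all had a ratio on replicate 2, 12 had one on at least 2 arrays and 7 on all 3. Only those 7, which are 2 upstream and 5 coding features, entered the test of the mean against 0 (limma, Benjamini-Hochberg over all 3960 features on 3 arrays, adjusted p below 0.05). Of the members tested, 1 of 7 was enriched, against 8.26% of all features tested. It was 1 of 2 upstream features, against 19.7% of intergenic features, and 0 of 5 coding features, against 2.41% of coding features, with 2 of these 5 above 0 at unadjusted p below 0.05. None of the 7 was depleted by limma, against 5.61% of all features, and 1 of them lay below 0 at unadjusted p below 0.05. Over all 3960 features, 586 lay above 0 and 675 below 0 at that unadjusted limma threshold. The share enriched was thus close to the background for so few features, and the result about these genes is which of their features stood high. Limma called 0 features of 3960 either way in the unturned reading, with 138 at unadjusted p below 0.05, none of them a member.

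**Figure D1:**
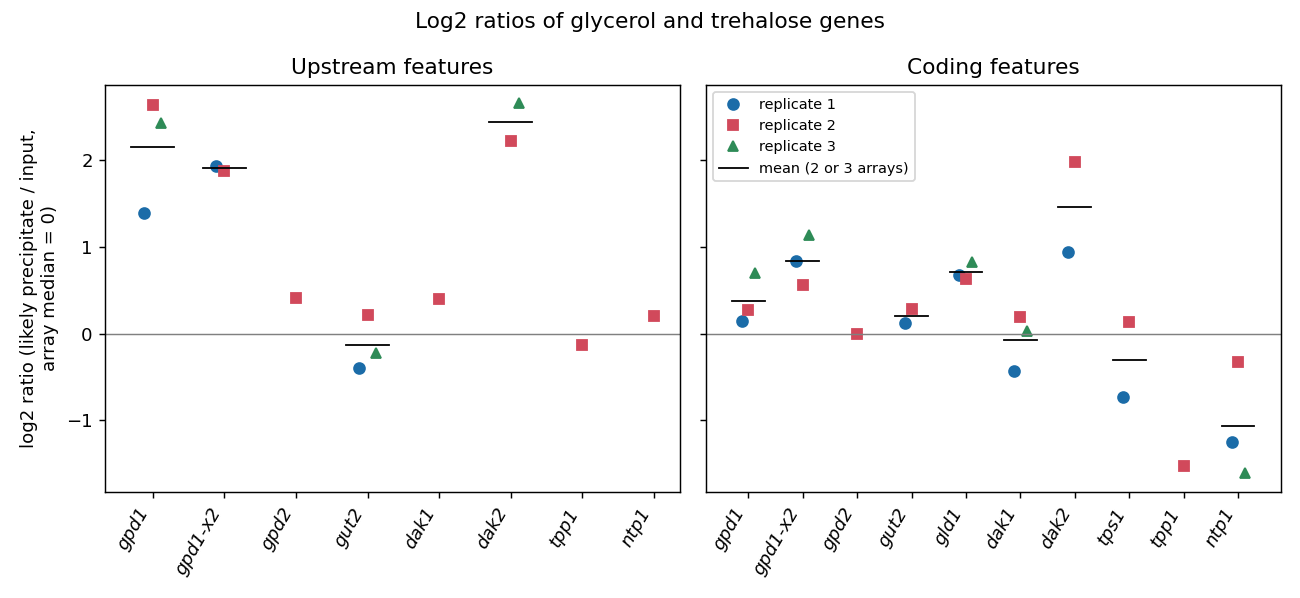
Log2 ratio of likely precipitate over likely input (vertical axis, array median at 0) for each upstream and coding feature of the 9 genes (horizontal axis), with a marker for each replicate array and a line at the mean where 2 or 3 arrays gave a value. The upstream features of gpd1 (1.40 to 2.64), gpd1-x2 (1.87 and 1.94) and dak2 (2.22 and 2.66) stood above the other upstream features (-0.39 to 0.41).

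The enriched feature was the one named as upstream of gpd1, the symbol of the stress-induced glycerol 3-phosphate dehydrogenase gene and, formerly, of tdh1. IGR-gpd1 had log2 ratios of 1.40, 2.64 and 2.43 on replicates 1, 2 and 3. All 3 arrays put it above 0, with replicate 1 the lowest, and it ranked at the 91.0, 99.1 and 98.4 percentiles of its arrays. The mean was 2.16 ± 0.67 (SD, n = 3 arrays), which is 4.46-fold, with a limma adjusted p = 0.00341. Precipitate-channel intensities were 3234, 8108 and 6471, above the negative-control limit on each array, against 711, 1540 and 782 in the input channel. These inputs were partly dim. With the dimmest 20% of input spots of each array left out, IGR-gpd1 no longer had a ratio on all 3 arrays and was not tested. The 2 spots of the feature differed by 0.52, 0.39 and 0.04 on replicates 1, 2 and 3. Its mean in the unturned reading was 0.40 ± 2.68 (SD, n = 3 arrays; limma adjusted p = 0.936).

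The coding feature of the same name was lower on every array. It had log2 ratios of 0.14, 0.28 and 0.70 on replicates 1, 2 and 3, a mean of 0.37 ± 0.29 (SD, n = 3 arrays) that did not pass the test (limma adjusted p = 0.423). On replicate 3 the coding ratio came from 1 spot, and its precipitate-channel intensity of 2876.5 was under the negative-control limit. The upstream minus coding difference was 1.25, 2.36 and 1.74, with no overlap between the upstream and the coding values, and averaged 1.78 ± 0.56 (SD, n = 3 arrays). An exact 2-sided sign-flip permutation test over the arrays gave p = 0.25, the smallest that 3 arrays allow. Over 640 genes with both features on all arrays the median difference was 0.64 and 78.9% were above 0, so a higher upstream than coding ratio was common. The gpd1 difference in the unturned reading was 0.21 ± 2.24 (SD, n = 3 arrays).

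The array carries a further pair of features under the name gpd1-x2, and the files do not say how it differs from gpd1. Of 16 names on the array that end in x2, 10 have a base name that 2 or more reference loci carry, as gpd1 does, and no feature is named tdh1 or by the systematic name of either locus. Which pair belongs to glycerol 3-phosphate dehydrogenase and which to glyceraldehyde 3-phosphate dehydrogenase cannot be told apart. Both pairs had a high upstream feature. IGR-gpd1-x2 had log2 ratios of 1.94 and 1.87 on replicates 1 and 2 and none on replicate 3, where its input channel was without signal. Its mean was 1.91 ± 0.047 (SD, n = 2 arrays), 3.75-fold, and in the fit over features on at least 2 arrays its limma adjusted p was 0.012. In the unturned reading the mean was 0.03 ± 2.70 (SD, n = 2 arrays).

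The gpd1-x2 coding feature had log2 ratios of 0.83, 0.56 and 1.14 on replicates 1, 2 and 3. All 3 lay above 0 and below both values upstream, and the mean of 0.84 ± 0.29 (SD, n = 3 arrays) did not pass the test (limma adjusted p = 0.0814). It passed with normexp background correction (1.85, limma adjusted p = 0.0375) and with intergenic and coding features centred separately (1.06, limma adjusted p = 0.0460). On replicate 3 the gpd1-x2 coding ratio came from 1 spot. Its precipitate-channel intensities on replicates 1 and 3, 1695.5 and 3924, were under the negative-control limits. The upstream minus coding difference was 1.10 and 1.31 on replicates 1 and 2. The coding sequence of tdh1 is 93.4% identical to that of gpd3, another glyceraldehyde 3-phosphate dehydrogenase gene, over 1004 bases, and that of gpd1 is 65.5% identical to gpd2 over 1022 bases; cross-hybridisation between these copies was not tested. IGR-gpd3 had log2 ratios of 0.83, 2.98 and 2.06 (mean 1.96 ± 1.08, SD, n = 3 arrays; limma adjusted p = 0.012). The upstream features of gpd1, gpd1-x2 and gpd3 were thus high together on replicate 2, whichever locus each of the first pair stands for. On replicate 1 IGR-gpd3 was only at the 77.9 percentile, and on replicate 3 IGR-gpd1-x2 had no ratio.

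The second glycerol 3-phosphate dehydrogenase gene, gpd2, had ratios on replicate 2 only. Its log2 ratio was 0.41 upstream, at the 75.9 percentile of that array, and -0.003 in the coding region, at the 50.5 percentile. Neither stood out on the array that measured most features, and with 1 array there was no test. For gut2, the mitochondrial enzyme that oxidises glycerol 3-phosphate, IGR-gut2 had log2 ratios of -0.39, 0.22 and -0.22 on replicates 1, 2 and 3. These lie on both sides of 0, and the mean was -0.13 ± 0.31 (SD, n = 3 arrays; limma adjusted p = 0.790). Precipitate-channel intensities of IGR-gut2 on replicates 1 and 3, 1550 and 2710, were under the negative-control limits. The gut2 coding feature had 0.13 and 0.29 on replicates 1 and 2. IGR-gut2 lay below IGR-gpd1 on every array. The gut2 and gpd1 promoters shown both hold TGACGT, but IGR-gpd1 may stand for tdh1, whose window held none of the motifs searched. A link between motif and ratio was not tested.

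**Figure D2:**
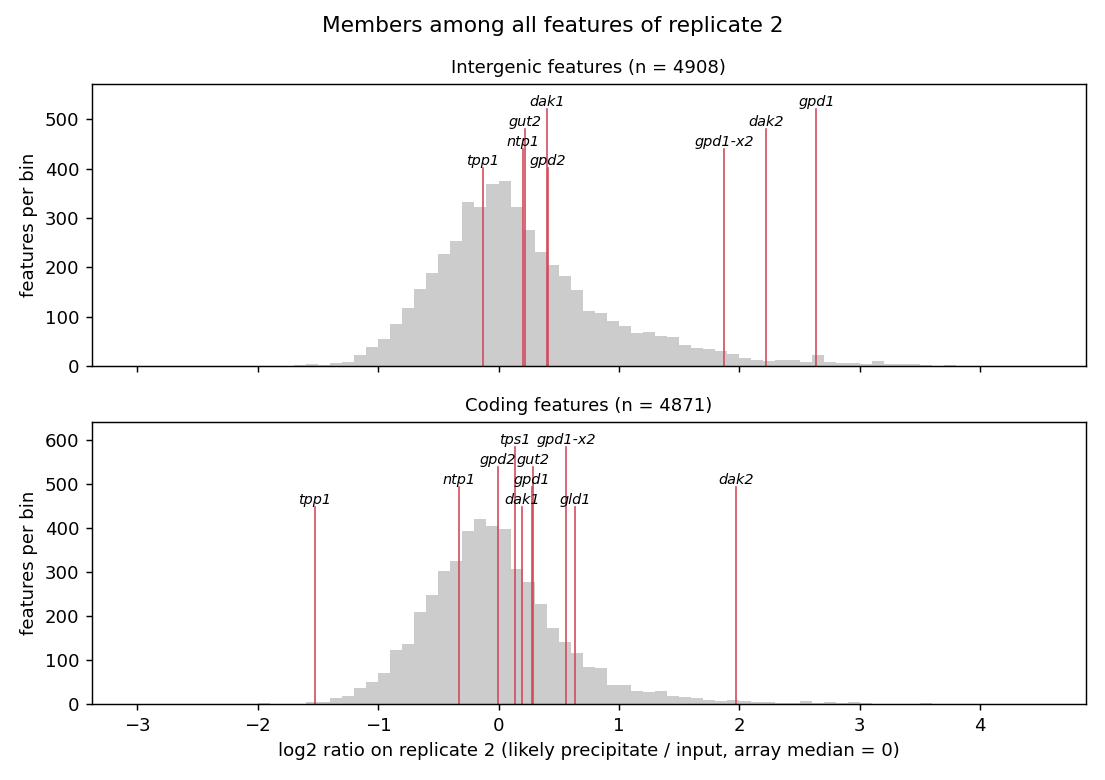
Number of features per bin (vertical axis) by log2 ratio on replicate 2 (horizontal axis, array median at 0) for 4908 intergenic features above and 4871 coding features below, with red lines at the features of the 9 genes. The upstream features of gpd1 (2.64), dak2 (2.22) and gpd1-x2 (1.87) and the dak2 coding feature (1.98) lie in the right tails, the tpp1 coding feature (-1.53, 1 spot) in the left.

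Of the genes for glycerol use, gld1 and dak1 were not called and dak2 was high. The gld1 coding feature, for the glycerol dehydrogenase, had log2 ratios of 0.68, 0.63 and 0.83 on replicates 1, 2 and 3. The arrays lay close together and all above 0, with a mean of 0.71 ± 0.10 (SD, n = 3 arrays; limma adjusted p = 0.118). On replicates 1 and 3 the gld1 ratio came from 1 spot. The precipitate-channel intensities there, 1597 and 2280, were under the negative-control limits. The dak1 coding feature had -0.43, 0.20 and 0.03, on both sides of 0, with a mean of -0.07 ± 0.33 (SD, n = 3 arrays; limma adjusted p = 0.891). IGR-dak1 had 0.40 on replicate 2 alone.

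The feature upstream of dak2, the second dihydroxyacetone kinase gene, had log2 ratios of 2.22 and 2.66 on replicates 2 and 3. These were at the 98.4 and 98.9 percentiles of their arrays, close to those of IGR-gpd1 on the same arrays. The mean was 2.44 ± 0.31 (SD, n = 2 arrays), 5.42-fold. In the fit over the 6351 features on at least 2 arrays it was enriched (limma adjusted p = 0.003), and 3 of the 12 members in that fit were enriched, all upstream (IGR-gpd1, IGR-gpd1-x2 and IGR-dak2), against 6.66% of all features and 13.7% of intergenic ones. None of the 8 coding members in it was enriched, against 1.92% of coding features. Limma called 0 members depleted in it, against 2.8% of all features, 0.358% of intergenic and 4.37% of coding ones. A limma unadjusted p below 0.05 was reached by 7 of the 12, against 1628 of all 6351 features in this fit. On replicate 1 the feature had no input signal, and its precipitate-channel intensity of 1633 was under the negative-control limit. The unturned mean was 0.22 ± 3.45 (SD, n = 2 arrays).

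The dak2 coding region was high as well on replicate 2, unlike the coding feature named gpd1. The gpd1-x2 coding feature, at 0.83 and 0.56 on replicates 1 and 2, lay between them on both arrays. The dak2 coding feature had log2 ratios of 0.95 and 1.98 on replicates 1 and 2, with a mean of 1.46 ± 0.73 (SD, n = 2 arrays) that did not pass in the fit over at least 2 arrays (limma adjusted p = 0.051). On replicate 2, the only array with both dak2 features, upstream minus coding was 0.24 for dak2, 2.36 for gpd1 and 1.31 for gpd1-x2. The difference between the genes was not tested. The unturned coding values were 0.95 and -1.98, with a mean of -0.52. The coding sequence of dak2 had no blastn match in the other coding sequences of the reference.

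In the reference, dak2 (chromosome I, 64559 to 66679, minus strand) lies 64558 bases from the chromosome end and is read away from SPAC977.17, with 463 bases between the coding regions. The reference annotates SPAC977.17 as a protein of the MIP superfamily, the family of water and glycerol channels. The region upstream of dak2 therefore also lies before the coding region of SPAC977.17, and the names do not say how the array divides it. The annotated SPAC977.17 gene begins at 66226, inside the dak2 coding region, so this region is part of its annotated transcript. IGR-SPAC977.17 had log2 ratios of 1.54 and 3.16 on replicates 1 and 2 (mean 2.35 ± 1.14, SD, n = 2 arrays; limma adjusted p = 0.009 in the fit over at least 2 arrays). A further intergenic feature of SPAC977.17 had 0.77, 1.81 and 0.22 (mean 0.93 ± 0.81, SD, n = 3 arrays; limma adjusted p = 0.102), and its coding feature had 0.36 and 1.34 on replicates 1 and 2.

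On the other side of dak2, the coding feature of SPAC977.15, annotated in the dienelactone hydrolase family, had log2 ratios of 1.13, 1.88 and 1.49 on replicates 1, 2 and 3. All 3 were above 0, and it was enriched 2.82-fold (SD of the log2 ratios 0.38, n = 3 arrays; limma adjusted p = 0.012). Its upstream feature had 1.93 on replicate 2. On replicate 2, high ratios thus ran across dak2 and both adjacent genes, the lowest being SPAC977.17 coding at the 94.3 percentile. The SPAC977.17 side was not high throughout on the other arrays. Its coding feature was at the 60.1 percentile on replicate 1. Its further intergenic feature, at 0.22 on replicate 3, was below the median of 0.55 for intergenic features there. The other 8 member genes follow their upstream neighbour on the same strand. Of the features of their adjacent genes, 12 had values on all 3 arrays, with means from -1.73 to 0.39. Limma called 0 of these 12, against 8.26% of all features enriched and 5.61% depleted. Most of the 12 were coding, a class with 2.41% enriched, so 0 enriched was close to the background. At limma unadjusted p below 0.05, 0 of them lay above 0 and 4 below, against 586 and 675 of all 3960 features. These neighbours are those of gpd1 at SPBC215.05. At tdh1, the other locus that the name gpd1 may stand for, 3 features of adjacent genes had values on all 3 arrays. Limma called 1 of them enriched, an intergenic feature, against 19.7% of intergenic features. This was IGR-SPBC32F12.15, upstream of the next gene, tfb5. It had log2 ratios of 2.68, 0.83 and 2.02, each from 1 spot (mean 1.84 ± 0.94, SD, n = 3 arrays; limma adjusted p = 0.012).

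**Figure D3:**
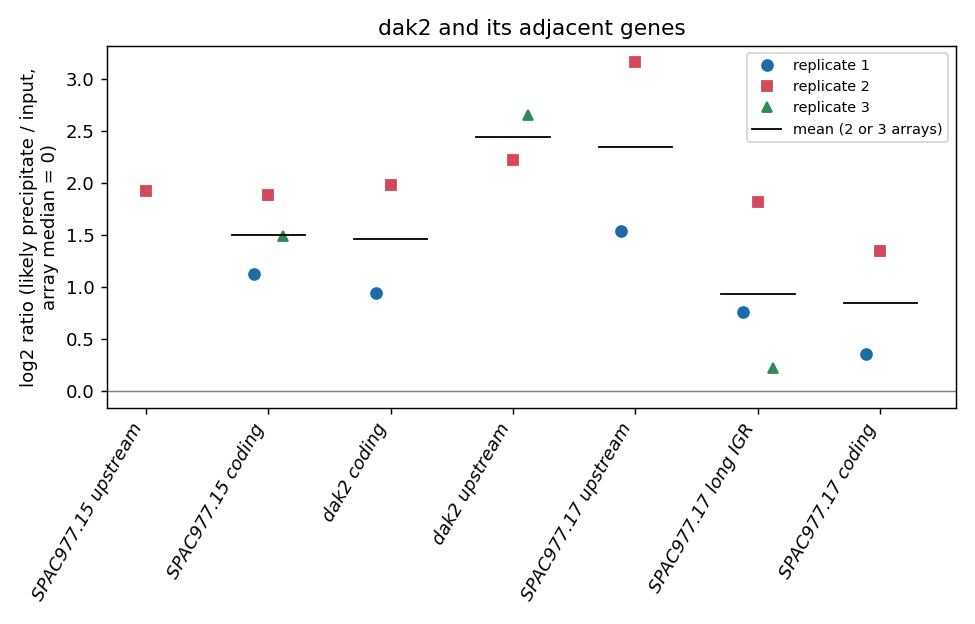
Log2 ratio of likely precipitate over likely input (vertical axis, array median at 0) for features of SPAC977.15, dak2 and SPAC977.17 (horizontal axis, grouped by gene and not to scale), with a marker for each replicate array and a line at the mean of 2 or 3 arrays. Every value lies above 0, from 0.22 to 3.16, with the dak2 and SPAC977.17 upstream features highest.

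The trehalose genes had no high feature among those with a ratio, and the upstream feature of tps1 gave none. The tps1 coding feature, for trehalose 6-phosphate synthase, had log2 ratios of -0.73 and 0.13 on replicates 1 and 2. IGR-tpp1, upstream of the phosphatase gene, had -0.13 on replicate 2. The tpp1 coding feature had -1.53 from 1 spot of replicate 2, at the 0.152 percentile of that array, with 302 intensity units in the precipitate channel and 1014 in the input channel. That single spot is the lowest of the members' ratios on replicate 2 and has no replicate check; in the unturned reading it would be 1.53 and rank at the 99.9 percentile.

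IGR-ntp1, upstream of the neutral trehalase gene, had 0.21 on replicate 2. The ntp1 coding feature had log2 ratios of -1.25, -0.33 and -1.61 on replicates 1, 2 and 3. All 3 arrays put it below 0, with replicate 2 nearest to 0, and the mean was -1.06 ± 0.66 (SD, n = 3 arrays), 0.478-fold, just outside the threshold (limma adjusted p = 0.0586). It was depleted without replicate 2 (-1.43, limma adjusted p = 0.0228), with median spot intensity (-1.18, limma adjusted p = 0.0385) and without spots carrying the scanner's S flag (-1.06, limma adjusted p = 0.0483). Its unturned mean was -0.85 ± 1.03 (SD, n = 3 arrays). Depletion by limma was more common among coding features, at 7.93%, than among intergenic ones, at 0.904%.

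The labels describe a binding list made by rank, with features above the 85th percentile kept. Taking the median percentile over the arrays that gave a ratio, 4 of the 18 member features were listed, against 11.1% of all features. They were 3 of 8 upstream features, IGR-dak2 (98.6), IGR-gpd1 (98.4) and IGR-gpd1-x2 (97.2), against 17.0% of intergenic features, and 1 of 10 coding features, dak2 (89.7), against 5.15%. The coding feature of gpd1-x2 (81.2) was the nearest below the threshold and gld1 (79.9) the next. With percentiles taken within intergenic and within coding features 6 were listed, gpd1-x2 and gld1 coding being added, against 10.2% of intergenic and 9.83% of coding features. In the unturned reading 2 were listed, IGR-gpd1 (91.0) and the tpp1 coding feature (99.9, 1 spot).

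On replicate 2, where every named feature with a ratio was measured, the 8 upstream features ran from -0.13 to 2.64 with a median of 0.41, against 0.07 over 4908 intergenic features. The 10 coding features ran from -1.53 to 1.98 with a median of 0.24, against -0.08 over 4871 coding features. The 5 upstream features other than those of gpd1, gpd1-x2 and dak2 lay between -0.13 and 0.41, within the bulk of the intergenic distribution. Among the features measured on replicate 2, the highest values were thus held by a few genes. Whether this extends to all 9 cannot be told. The upstream features of gld1 and tps1 gave no ratio, and those of gpd2, dak1, tpp1 and ntp1 had replicate 2 only.

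Other genes of these pathways were listed by role: tps2, tps3 and SPAC22F8.05 (annotated as trehalose phosphate synthases), SPAC977.17, fyu1 (UDP-glucose pyrophosphorylase), pgi1, fba1 and tpi1 (glycolytic enzymes around dihydroxyacetone phosphate and glucose 6-phosphate), tms1 (hexitol dehydrogenase), gut1 and gpp1. On the array 9 of these 11 genes were matched, with 19 features, of which 11 had values on all 3 arrays. Limma called 2 of the 11 enriched, against 8.26% of all features, and 0 depleted, against 5.61%. At limma unadjusted p below 0.05, 6 of the 11 lay above 0 and 1 below, against 586 and 675 of all 3960 features. Both enriched features were among the 5 upstream features, against 19.7% of intergenic features. The median of the 11 means was 0.87, but 5 of these 11 features are upstream, against 2 of the 7 members tested, and the medians over all features were 0.36 for intergenic and -0.28 for coding ones, so the lists' medians are not compared. The enriched features were those upstream of tpi1 and fba1, which encode triose phosphate isomerase and fructose bisphosphate aldolase, the enzymes that form dihydroxyacetone phosphate. IGR-tpi1 had log2 ratios of 2.02, 2.36 and 1.86 on replicates 1, 2 and 3, all high (mean 2.08 ± 0.26, SD, n = 3 arrays; limma adjusted p = 0.002). On replicate 3 that ratio came from 1 spot, and the precipitate-channel intensity of 3283.5 was under the negative-control limit. IGR-fba1 had 1.13, 2.23 and 2.16, with replicate 1 the lowest (mean 1.84 ± 0.62, SD, n = 3 arrays; limma adjusted p = 0.006).

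The upstream feature of tps3, a trehalose 6-phosphate synthase gene, varied between arrays. It had log2 ratios of 0.18, 2.11 and 1.11 on replicates 1, 2 and 3, and its mean of 1.13 ± 0.97 (SD, n = 3 arrays) did not pass (limma adjusted p = 0.073). IGR-SPCC1322.04, upstream of fyu1, which supplies UDP-glucose to trehalose synthesis, had 1.46 and 1.28 on replicates 2 and 3 (limma adjusted p = 0.052 in the fit over at least 2 arrays). The value on replicate 3 came from 1 spot, with a precipitate-channel intensity of 3550.5, under the negative-control limit. Other features were near or below 0. The fyu1 coding feature had -0.72, -0.34 and -1.14 on replicates 1, 2 and 3. The coding means of tps3 and tps2 were -0.17 and -0.003 (n = 3 arrays), and the feature upstream of tps2 had -0.91 on replicate 2 alone. The coding feature of SPAC22F8.05 had 2.40, 0.10 and 0.94, a wider spread than any member's, with a mean of 1.15 ± 1.17 (SD, n = 3 arrays; limma adjusted p = 0.090). The 2 spots averaged to 2.40 on replicate 1 differed by 3.55, where the median for paired spots of that array was 0.25. On replicate 3 the value came from 1 spot.

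The 3 features nearest to IGR-gpd1 by Euclidean distance over its 3 log2 ratios, among 3959, were IGR-SPAC30D11.02c (distance 0.20), the SPAC683.03 coding feature (0.26) and IGR-SPBPB2B2.11 (0.30). Their means were 2.17 ± 0.58, 2.16 ± 0.50 and 2.23 ± 0.60 (SD, n = 3 arrays). Each had its lowest ratio on replicate 1 and its highest on replicate 2, as IGR-gpd1 did. The likeness is a description over 3 arrays.

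**Figure D4:**
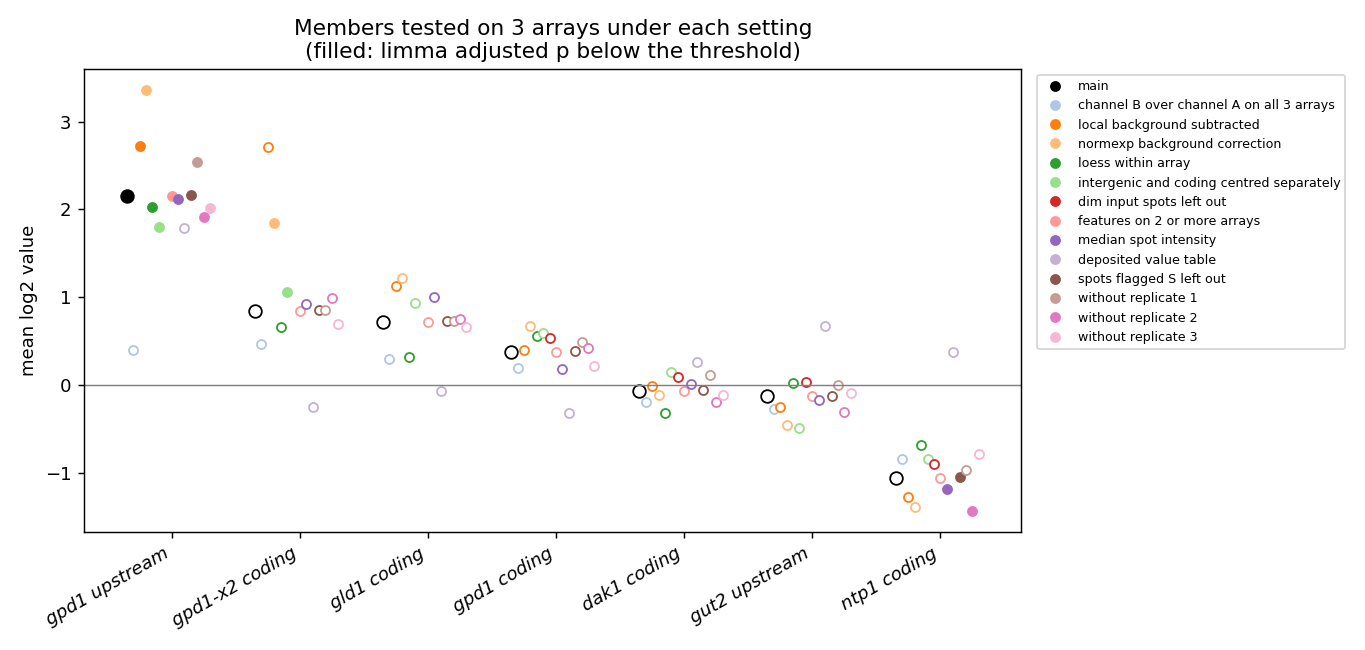
Mean log2 value (vertical axis) of the 7 members measured on 3 arrays (horizontal axis) under each processing setting (colours), filled where the limma adjusted p was below 0.05. The feature upstream of gpd1 is filled except in the unturned reading, channel B over A throughout (0.40), and with the deposited values (1.79), and has no point where dim input spots are left out.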

How the data were processed

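Per the labels' protocols, the authors scanned 2-colour arrays and quantified them with TIGR Spotfinder. Per the file headers, the deposited files give spot intensity and local background for channels A and B; no source used here states whether background was already subtracted. The deposited log10 values were median-normalised in GeneSpring, per the labels' protocols. Above their floor of -2 these deposited log10 values followed channel B intensity on replicates 1 and 3 (r = 0.99 and 0.99 over spots) and channel A on replicate 2 (r = 0.94), so they hold 1 channel and not a ratio, and their medians were 0.01, -0.04 and 0.02.

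Replicates are numbered in the order of deposition. Log2 ratios (channel B over A on replicates 1 and 3, A over B on replicate 2) were computed from integrated intensities, without spots of non-positive intensity, centred on the array median and averaged over a feature's spots. The test of each mean against 0 used lmFit and eBayes of limma 3.58.1 under R 4.3.3 (Benjamini-Hochberg, adjusted p below 0.05) over features on all 3 arrays, and the fit was tested on simulated data. A fold is 2 to the mean log2 ratio. Other steps used Python 3.11.15, pandas 2.3.3, numpy 2.4.6, Biopython 1.88 and blastn 2.17.0. Gene names, order and promoters came from RefSeq assembly ASM294v3.

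The members, the pathway list, the motifs and the orientation were chosen with earlier results of these data known. The text names every feature of the members and the pathway genes in counts or by value, the genes sharing a divergent region with a member, and the 3 features nearest to the upstream member with the highest mean among those on all 3 arrays. SPAC977.15, gpd3 and IGR-SPBC32F12.15 were named after their values were seen. The labels' rank list was rebuilt from median percentiles. All p-values rest on these 3 arrays. Those of limma use a spread between arrays that eBayes draws towards the spread of all features. In the fit over features on all 3 arrays the prior SD was 0.547, with 8.08 prior degrees of freedom. The SD printed beside a limma p-value is the feature's own, without that adjustment.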

Additional observations from a re-analysis of the deposited data

Results flagged for a closer look

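Ratios were lacking for 26 of the 63 pairs of a member feature and an array, and in 5 of these the precipitate channel alone lay above the 95th percentile of the negative-control spots, a signal the comparisons above do not use. On replicate 3, with a limit of 4452 intensity units, the gut2 coding feature had 11769 from 1 spot, the IGR-ntp1 feature 6133 from 2 spots and the dak2 coding feature 5468 from 2 spots. On replicate 1, with a limit of 1959, IGR-dak1 had 7744 from 1 spot and IGR-ntp1 had 3216 from 1 spot. Without input signal these intensities give no enrichment, since the amount of DNA on each spot is not known. Over the 36 spots of features whose names do not end in Missing, the precipitate channel alone was positive at 5, 0 and 16 spots of replicates 1, 2 and 3. With 3 arrays in the group, single arrays far from the others were not looked for.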

How the results depend on the processing

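No paired analysis was possible because there is 1 group. The orientation of replicate 2 decides the calls that use that array, though not those made without it. In the unturned reading limma called 0 features enriched and 0 depleted, in place of 327 and 222, with 138 at unadjusted p below 0.05, and 0 members in place of 1. The gpd1 upstream minus coding difference was then 0.21 in place of 1.78, and 2 members were listed by rank in place of 4. With the deposited values limma called 0 and 0 features, with 597 of 7198 at unadjusted p below 0.05. It called 0 members, with 1 of 13 at unadjusted p below 0.05. The deposited values are intensities of 1 channel. IGR-gpd1 lost its call under these 2 settings (0.40, adjusted p = 0.936, and 1.79, adjusted p = 0.187) and kept it under the other 10 in which it was tested. Subtracting local background left 135 features enriched and 7 depleted, and median spot intensity gave 363 depleted. Leaving out dim input spots gave 196 enriched and, since IGR-gpd1 had too few spots left to be tested, 0 members. In that setting 1 of 4 members had a limma unadjusted p below 0.05, against 915 of 3106 features. The member count was 2 with normexp and with classes centred separately, the gpd1-x2 coding feature being added, and 3 over features on at least 2 arrays. One member, ntp1 coding, was depleted in place of 0 with median spot intensity and without S-flagged spots, a setting chosen after seeing the data. Centring classes separately gave 1.21 for the gpd1 difference, and the 90th percentile gave 682 listed features in place of 1097. Leaving out each array in turn gave 209 to 331 enriched features (209 without replicate 3) and 9 to 548 depleted (58 without replicate 1, 548 without replicate 2, 9 without replicate 3). Without replicate 2, whose orientation then plays no part, 331 features were enriched, IGR-gpd1 among them (1.91, limma adjusted p = 0.0173). It gave 1 to 2 members enriched (IGR-dak2 added without replicate 1, IGR-gpd1-x2 without replicate 3), 0 to 1 depleted, and gpd1 differences from 1.49 to 2.05. Causes other than those stated were not tested.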
